A study of Homo sapiens with 12 samples.

Results

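RNA from cells labelled as having lost 1 copy of the short arm of chromosome 17 (17p) was compared with RNA from cells labelled intact, both kept for 48 h in vehicle, dimethyl sulfoxide (DMSO). The comparison used the 6 vehicle libraries of a series of 12, with 3 libraries per group, and every gene with enough counts to be tested, 21803 of 60660 gene identifiers. HS578T, the line that the labels give, is an established line of triple-negative breast cancer. The intact group has the genotype WT and "cas9" in its titles, after the nuclease used for genome editing, and the deleted group has a knockout of one 17p copy and "17PKO" in its titles. In the other 6 libraries the cells had received doxorubicin, at 170 nM in the intact and 1 µM in the deleted group, so dose and genotype change together there. The labels do not say whether a group is 1 clone or a mixed population and do not tell whether separate cultures were used for the replicates. P-values therefore measure only the spread between these libraries, which may be technical, and any difference between the cell populations other than 17p cannot be told apart from the genotype. The libraries are called I1 to I3 (labelled intact) and D1 to D3 (labelled deleted).

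The short arm of chromosome 17 carries many genes and is often lost in breast cancer. Cancer cells of this mesenchymal kind make their own extracellular matrix, growth factors and cytokines. They also keep a basal level of interferon signalling, in which receptors at the surface activate STAT and IRF transcription factors, and these switch on antiviral enzymes and the machinery that shows peptides on HLA class I to T cells.

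Total counts were 66150539 to 96798057 per vehicle library, at which 3 counts, the floor for a gene at 0, stand for 0.0305 to 0.0444 CPM (TMM-scaled counts per 1000000). Library D2 stood apart: mitochondrial genes took 6.90% of its counts against 2.61% to 3.47% in the other vehicle libraries. Between D2 and D1 or D3 chi-square per degree of freedom was 204, beside 10 to 26.7 in the other within-group vehicle pairs. A gene's deviation from its group mean correlated with transcript GC content at 0.353 in D1, -0.508 in D2 and 0.431 in D3 (Spearman). That mean includes D2. In the intact libraries the correlations were -0.0195 to 0.0258. Many results that turned on D2 are given with and without it. Chromosome-specific transcripts went against the known HS578T karyotype in 6 of 6 vehicle libraries, so groups are named by their labels only. Of the markers of the labelled tissue, estrogen and progesterone receptor mRNAs (ESR1, PGR) stayed at or below 0.143 CPM, KRT5, EPCAM and CDH1 at or below 0.315 CPM, and vimentin (VIM) lay between 1724 and 2526 CPM. VIM was lower in the deleted libraries (log2 fold change -0.46, deleted over intact). The epithelial keratin genes KRT8 and KRT18 reached 369.6 and 248 CPM, and GATA3 and ERBB2 21.3 and 114 CPM. None of these was called with all libraries, and without D2 KRT18 was called higher and GATA3 lower in the deleted group. Of the 7 blood and endothelial markers HBB was at 0 and PTPRC, the highest, at most 0.760 CPM. Of 13 melanocyte and neural crest markers 7 were expressed enough to be tested, of which 3 were higher and 1 lower in the deleted libraries, and the summed level of the list was 51.1 to 54.6 CPM in the intact and 112 to 139 CPM in the deleted ones. The higher ones were MITF (32.4, 29.6 and 30.0 against 51.3, 69.6 and 46.9 CPM), the pigment enzyme gene TYRP1 (0.0860, 0.143 and 0.102 against 1.67, 1.70 and 1.83 CPM) and GPNMB, described below. MLANA was at 0, SOX10 and TYR were at most 0.0296 CPM, and PMEL was at most 2.61 CPM and not called (called without D2). Without D2, 4 of the 7 tested markers were higher and 0 lower by edgeR. The part of such cells in the differences between the groups was not tested.

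The groups differed at 7618 of the 21803 genes tested, or 34.9% (edgeR's quasi-likelihood test, Benjamini-Hochberg adjusted p under 0.05). Of these, 4092 genes (18.8% of all tested) were higher and 3526 (16.2%) lower in the deleted libraries. The median log2 fold change, deleted over intact, was 0.04 over all genes and the median size of the called differences 0.75. At least 2-fold differences were found for 1243 higher and 1408 lower genes, and at least 16-fold ones for 109 and 65. These counts set no minimum level, and the fitted fold of a gene near 0 in either group depends on the prior count. Among the rises of genes of at least 5 CPM ranked below, only those of RTN1 and GPNMB reached 16-fold. Of 14540 protein-coding genes 42.9% were called, and of 4210 long noncoding RNA genes 21.7%. Without D2, 7385 of 22686 genes were called (32.6%), and 6360 of the 7618 genes kept their call and direction. Leaving out I1, I2 or I3 gave 5908, 6010 and 5893 calls. Gene lists below are described by the number of tested members called in each direction, to be read against the shares of 18.8% and 16.2% (22.8% and 20.1% of protein-coding genes), and by their median log2 fold change, to be read against 0.04.

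**Figure D1:**
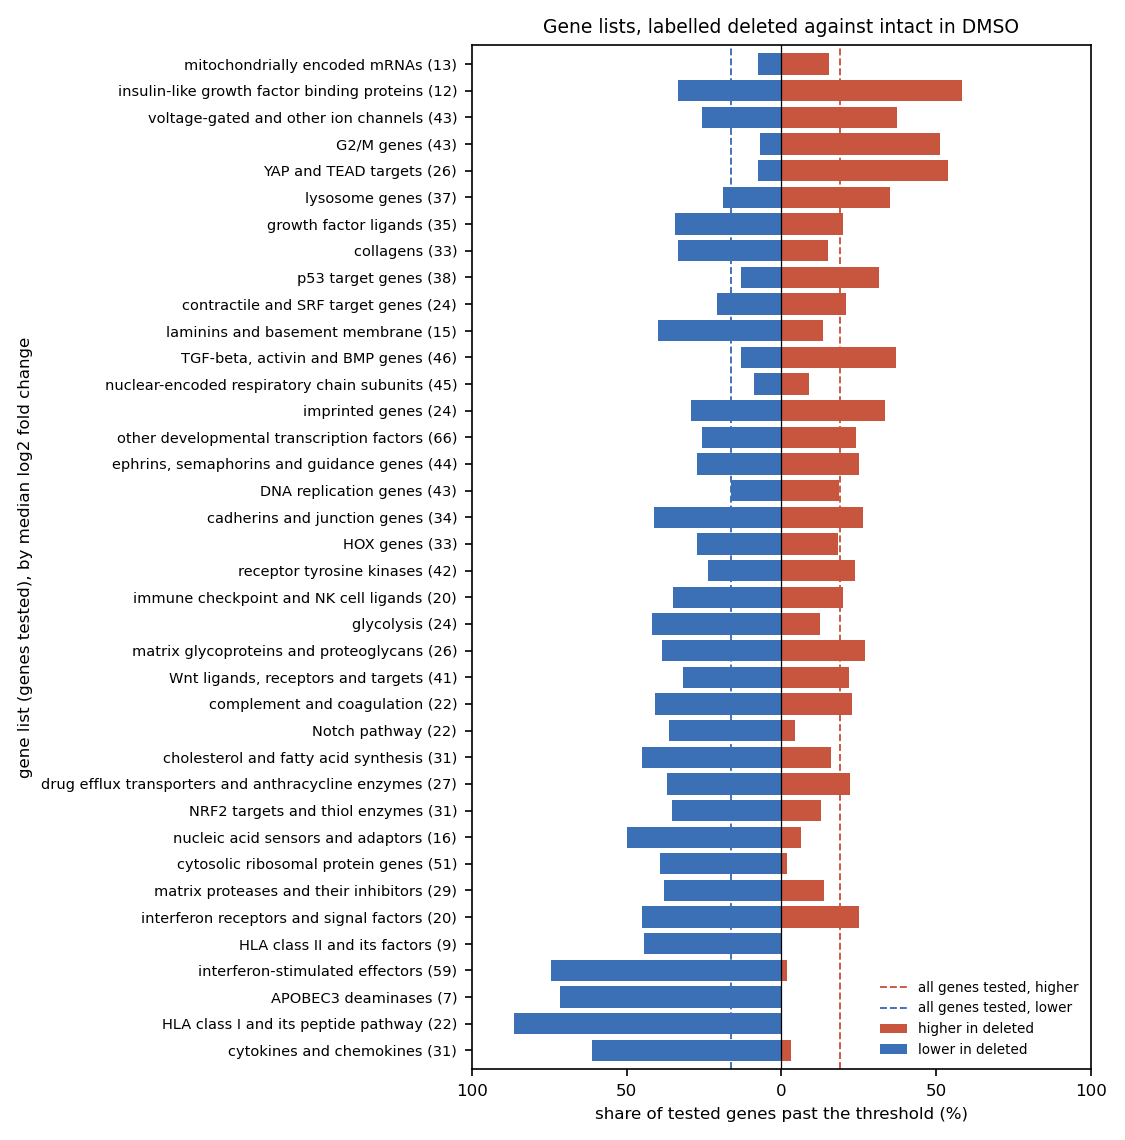
Share of tested genes in 38 gene lists that were higher (right, red) or lower (left, blue) in the deleted than in the intact vehicle libraries, in percent, ordered by the list's median log2 fold change, with the number of genes tested in parentheses. Dashed lines mark the shares over all genes tested (18.8% higher, 16.2% lower); the longest bars are those of HLA class I, interferon-stimulated effectors and APOBEC3 deaminases to the left and of insulin-like growth factor genes, YAP targets and G2/M genes to the right.

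RNA of 17p itself lay slightly below that of the rest. The 399 tested genes that start before 23 Mb on chromosome 17 had a median log2 fold change of -0.12, with 46 higher and 87 lower (11.5% and 21.8%), against 0.04 for all other genes. The median was -0.10 without D2, and the gap to the other genes, -0.17, was -0.069 with no filter on low counts. Among 17p genes of at least 5 CPM 57 of 190 were lower (30.0%) and 23 higher (12.1%), beside 20.4% and 25.4% of the other genes at that level. Along the arm it ran from 0.19 over the first 2 Mb (43 genes, 11 higher, 5 lower) to -0.30 between 6 and 8 Mb (82 genes, 6 higher, 22 lower). POLR2A, a 17p gene for the largest subunit of RNA polymerase II, was at 489, 526 and 432 CPM in I1 to I3 and at 543, 780.3 and 483 CPM in D1 to D3, so that the groups overlapped (0.32, SE 0.16, adjusted p = 0.15 by edgeR; called without D3). XAF1, an interferon-stimulated apoptosis factor encoded on 17p, was at 16.6, 18.7 and 19.8 CPM in the intact and 0.725, 1.93 and 1.07 CPM in the deleted libraries (-3.88, SE 0.27). For the long arm, 17q, not named in the genotype, the median over 974 genes was -0.24 (88 higher, 248 lower).

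Chromosomes 21 and 22 lay farther from the rest. On chromosome 21 the median was 0.60, with 113 of 230 genes higher (49.1%) and 13 lower, and on chromosome 22 it was -0.45, with 200 of 539 genes lower (37.1%) and 25 higher. All other chromosomes lay between -0.21 (chromosome 17) and 0.25 (chromosome 15). Without D2 the medians of 21 and 22 were 0.57 and -0.38. SIM2, a transcription factor gene of chromosome 21, was at 2.55, 2.42 and 2.22 CPM in the intact and 14.9, 18 and 14.3 CPM in the deleted libraries, and CHAF1B, a chromatin assembly factor on the same chromosome, at 40.8, 40.6 and 42.7 and 69.7, 77 and 66.4 CPM. Both were higher in each deleted library than in any intact one. Of the genes named below, IFNAR1, IFNAR2, IFNGR2, MX2, ADAMTS1, COL6A1, PFKL and LSS lie on chromosome 21, and TIMP3, LIF, HMOX1, USP18, APOL1, APOL3, MYH9, MRTFA and the APOBEC3 genes on chromosome 22. Copy number was not measured, and its part in these differences was not tested.

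**Figure D2:**
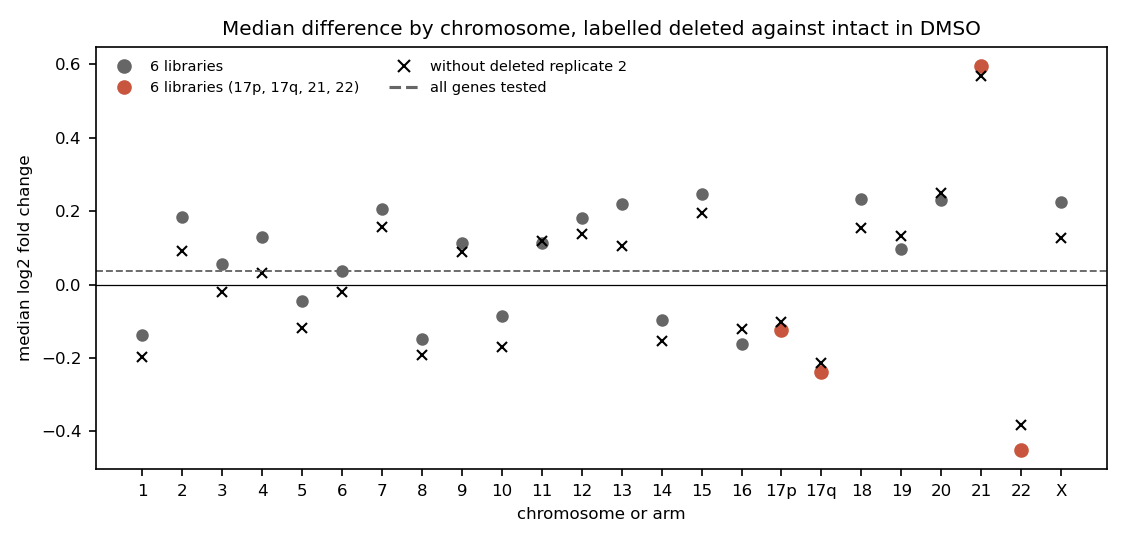
Median log2 fold change (deleted over intact, DMSO) of the tested genes of each chromosome, with chromosome 17 split into its arms. Circles use all 6 libraries, crosses leave out D2 and the dashed line is the median of all genes; chromosome 21 (0.60) and chromosome 22 (-0.45) lie outside the range of the others, and 17p (-0.12) lies within it.

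In interferon signalling the receptor genes IFNAR1, IFNAR2 and IFNGR2 were higher, and most of the tested genes that respond to interferon were lower, in the deleted libraries. Among 20 tested receptors and signal factors 5 were higher and 9 lower (median -0.37). IFNAR1 and IFNAR2 encode the chains of the type I interferon receptor. IFNAR1 was at 59.9, 59.2 and 58.6 CPM in I1 to I3 and 106, 112 and 98 CPM in D1 to D3 (log2 fold change 0.83, SE 0.12), and IFNAR2 at 5.33, 5.28 and 6.27 and 12.4, 10.5 and 12.4 CPM (1.06, SE 0.13). IFNGR2, a chain of the interferon gamma receptor, differed by 0.83 (SE 0.10), while its partner IFNGR1 was lower (-0.34, SE 0.08). The groups did not overlap at any of these receptor genes. STAT2 and IRF5 were the other higher members (0.60 and 0.54), IRF5 being not called in 9 of 16 alternatives, among them without D1, D3, I1, I2 or I3. IRF1, a transcription factor induced by interferon, was lower (25.8, 26.7 and 29.3 against 12.3, 11.9 and 13.9 CPM; -1.11, SE 0.10), as were IRF9, a DNA-binding partner of STAT proteins (-0.98, SE 0.20), and the feedback inhibitors USP18 (-1.20), SOCS1 (-1.25) and SOCS3 (-0.97).

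Of 59 tested interferon-stimulated effector genes 44 were lower and 1 higher (median -0.78). OAS2, an enzyme that makes the signal for RNA decay upon sensing double-stranded RNA (ENSG00000111335.13, chromosome 12, 112978395 to 113011723, hg38), was at 19.1, 20.8 and 20.3 CPM in the intact and 3.08, 2.96 and 3.55 CPM in the deleted libraries (-2.65, SE 0.11, adjusted p = 3.86e-09 by edgeR). IFI44L was at 11, 12.3 and 13 against 0.814, 0.828 and 1.04 CPM (-3.76, SE 0.20). The antiviral GTPase gene MX2, on chromosome 21 like the receptors, was at 11.7, 11.2 and 11.6 against 3.15, 3.43 and 3.13 CPM (-1.82, SE 0.10). APOL1 and APOL3, apolipoproteins induced by interferon, differed by -1.82 and -2.82. All 5 genes showed no overlap between the groups, as did 98.1% of all called genes. The single higher member was TDRD7 (0.43, SE 0.08), and the abundant members ZNFX1 and ZC3HAV1, both RNA-binding antiviral factors, did not pass (-0.07 and -0.04). Of the RNA and DNA sensors 8 of 16 were lower (median -0.28) and 1 higher, the kinase gene EIF2AK2 (0.60), not called without D2, I2 or I3. TLR3, an endosomal receptor for double-stranded RNA, was at 6.41, 6.74 and 6.48 against 1.55, 2.24 and 1.64 CPM (-1.85, SE 0.15), its cytosolic counterpart IFIH1 at -1.10 and the adaptor STING1 at -0.59 (SE 0.11). All 7 APOBEC3 cytidine deaminase genes lie on chromosome 22, and 5 of them were lower (median -0.93), among them APOBEC3B (59.8, 57.8 and 65.3 against 32, 31.6 and 32.6 CPM).

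Interferon-stimulated genes are switched on through promoter elements built of repeated GAAA blocks. The motif GAAANNGAAA was searched on both strands in the 250 bases before the start site of 27305 genes (RefSeq, GRCh38.p14), 3.07% of which hold it. Of the 59 effectors 45 had a promoter in that table. The motif was present in 25 of these (55.6%), in 21 of the 32 lower ones (65.6%) and in 4 of the 13 others (30.8%). It was held by 1 of 14 receptors and signal factors (7.14%) and by 7 of 18 HLA class I pathway genes (38.9%). Over all genes tested the share was 2.49%, with 3.58% of those called lower and 2.15% of those called higher. A match describes the letters only and is not a measured binding site. The promoters of the 4 lower effectors with a match and the lowest p are shown because these genes were lower together; each runs 5′ to 3′ on the gene's strand and ends at the base before the start site, with matches to the motif or its reverse complement in capitals. They lie at chr1:78620198-78620447 (IFI44L, + strand), chr10:89392373-89392622 (IFIT1, + strand), chr1:27672193-27672442 (IFI6, - strand) and chr19:17405631-17405880 (BST2, - strand).
IFI44L: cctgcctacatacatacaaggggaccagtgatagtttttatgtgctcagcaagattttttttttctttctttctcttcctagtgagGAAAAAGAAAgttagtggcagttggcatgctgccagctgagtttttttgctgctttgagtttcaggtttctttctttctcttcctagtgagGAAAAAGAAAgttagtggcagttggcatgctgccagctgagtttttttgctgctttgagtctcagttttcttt
IFIT1: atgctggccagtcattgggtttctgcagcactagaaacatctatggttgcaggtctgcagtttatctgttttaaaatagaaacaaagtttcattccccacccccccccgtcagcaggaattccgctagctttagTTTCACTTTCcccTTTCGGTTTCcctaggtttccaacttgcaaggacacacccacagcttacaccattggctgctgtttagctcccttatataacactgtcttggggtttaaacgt
IFI6: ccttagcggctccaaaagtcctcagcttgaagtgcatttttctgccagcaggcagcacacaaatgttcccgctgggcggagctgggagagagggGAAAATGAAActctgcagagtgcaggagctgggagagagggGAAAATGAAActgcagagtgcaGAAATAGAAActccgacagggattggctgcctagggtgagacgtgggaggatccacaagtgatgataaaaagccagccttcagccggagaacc
BST2: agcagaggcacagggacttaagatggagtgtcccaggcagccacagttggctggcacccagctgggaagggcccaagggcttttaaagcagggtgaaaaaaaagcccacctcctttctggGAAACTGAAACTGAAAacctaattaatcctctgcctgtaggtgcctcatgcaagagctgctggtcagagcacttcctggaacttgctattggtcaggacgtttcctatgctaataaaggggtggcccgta
These genes are IFIT1, which binds foreign RNA caps, at 62, 57.3 and 63.7 CPM in the intact and 21.3, 26.3 and 22.7 CPM in the deleted libraries, IFI6, an antiviral membrane protein, at 99.6, 91 and 97.2 and 12.5, 9.88 and 15.2 CPM, BST2, a tether of budding viruses, at 5.29, 6.11 and 7.67 and 0.636, 0.543 and 0.859 CPM, and IFI44L, given above. In each the 3 deleted libraries lay below the 3 intact ones.

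Most genes of the class I pathway of antigen presentation were lower in the deleted libraries. Of 22 genes for HLA class I chains and the pathway that cuts, transports and loads their peptides 19 were lower and 0 higher by edgeR (median -1.21), and 21 were lower without D2. DESeq2 and limma-voom also called 0 higher. HLA-B, a class I heavy chain (ENSG00000234745.12, chromosome 6, 31269491 to 31357188, hg38), was at 366, 353 and 371 CPM in the intact and 99.1, 67.4 and 102.6 CPM in the deleted libraries (-2.02, SE 0.16). PSMB9, an immunoproteasome subunit, was at 18, 16.4 and 18.3 against 3.98, 3.72 and 4.31 CPM (-2.13, SE 0.17), ERAP2, which trims peptides, at -1.65 (SE 0.11) and TAPBP, which bridges the transporter and class I, at -1.24 (SE 0.08). HLA genes are near-identical in parts and their reads can be split between them, so single HLA values are uncertain. The members that did not pass were B2M, the class I light chain (-0.20, SE 0.09), and the general folding factors CANX (-0.23) and PDIA3 (0.27). B2M and CANX were called lower without D2, and PDIA3 was called higher without D1 or D3. At an unadjusted p under 0.05, 1 of the 22 was higher. Of 9 tested class II genes 4 were lower (median -0.40), HLA-DPA1, HLA-DPB1, HLA-DMA and RFX5, at -0.80, -0.40, -1.09 and -0.29 (RFX5 not called without D2, I1 or I3). The class II median was -0.75 without D1. Ligands that immune cells read did not move one way: 4 of 20 were higher and 7 lower (median -0.12). NT5E, the CD73 enzyme that makes adenosine, was higher (33.7, 32.3 and 33.7 against 108, 136 and 107 CPM; 1.82, SE 0.12), with LGALS9 (1.81; not called in 9 of 14 alternatives, among them without D1, D2, I1, I2 or I3), ULBP1 (0.64) and ULBP2 (0.45). PDCD1LG2 (PD-L2, -0.91), VSIR (-1.50) and the stress ligand MICA (-0.60) were lower, and PVR and CD276 did not pass.

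**Figure D3:**
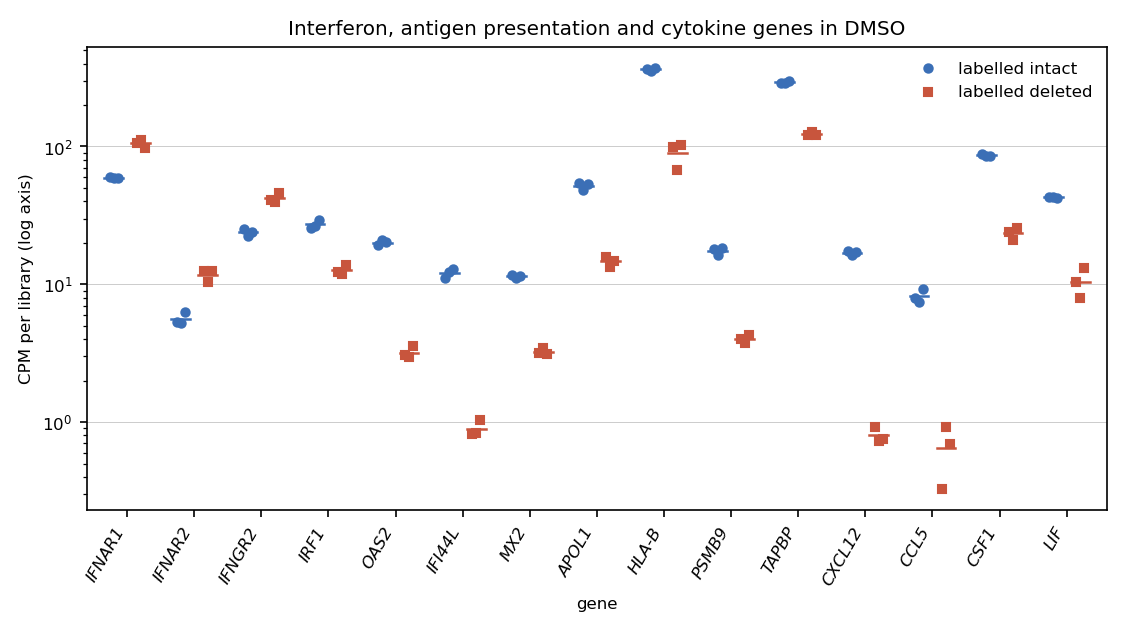
CPM in each of the 6 vehicle libraries, on a log axis, for 15 genes of interferon signalling, antigen presentation and cytokines; circles are intact and squares deleted libraries, and short lines are group means. The deleted libraries lie above the intact ones for the 3 receptor genes and below them for the other 12 genes. All 15 are called genes, mostly picked for a low p, and 98.1% of all called genes are apart in this way.

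Secreted signals of immune cells had the lowest median of all 59 lists, -1.445 over 31 tested cytokine and chemokine genes, of which 19 were lower and 1 higher. CXCL12, the chemokine that retains stem cells and lymphocytes (ENSG00000107562.16, chromosome 10, 44370165 to 44386493, hg38), was at 17.4, 16.2 and 17.1 CPM in the intact and 0.918, 0.733 and 0.758 CPM in the deleted libraries (-4.40, SE 0.14, adjusted p = 2.83e-10 by edgeR). CCL5, a T cell attractant, was at 7.91, 7.47 and 9.21 against 0.326, 0.923 and 0.695 CPM (-3.65, SE 0.26). CSF1, the growth factor of macrophages, was at 88.4, 85.8 and 84.9 against 24, 21.1 and 25.8 CPM (-1.87, SE 0.09), LIF, a cytokine of the interleukin 6 family, at -2.03 (SE 0.15) and the neutrophil attractant CXCL8 at -1.52 (SE 0.10). The groups were apart by more than their spread at each of these. IL18 was the single higher member (4.36, 4.10 and 4.72 against 13, 22.5 and 16.4 CPM; 1.98, SE 0.20), joined by CCL2 without D1, and CXCL16 and IL1B did not pass. In the complement and coagulation list 9 of 22 were lower and 5 higher (median -0.14). Lower ones included C3, the hub of the cascade (29.7, 32.3 and 33.6 against 5.89, 6.98 and 8.08 CPM; -2.19, SE 0.13), the plasminogen activator PLAT (-1.42) and the protease inhibitor TFPI2 (-1.89). The higher ones were the complement shields CD55 (0.45; not called in 8 of 16 alternatives, among them without D2, I1, I2 or I3) and CD59 (0.72), the inhibitor SERPING1 (1.33, from a mean of 0.332 to 0.837 CPM), tissue factor F3 (1.08, SE 0.11) and THBD (0, 0.0287 and 0 against 0.148, 0.190 and 0.152 CPM).

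Extracellular matrix genes differed in both directions. NID2, which links laminin to collagen IV in basement membranes (ENSG00000087303.18, chromosome 14, 52004803 to 52069228, hg38), was at 84, 88.2 and 84.8 CPM in the intact and 8.15, 8.88 and 7.12 CPM in the deleted libraries (-3.41, SE 0.10), while its paralog NID1 did not pass (0.06, SE 0.09). LAMA1, a laminin chain, was higher (40.5, 42.2 and 37.6 against 119, 93.3 and 109 CPM; 1.42, SE 0.10), and the laminin chain LAMC1 was lower (-0.39). Of 15 laminin and basement membrane genes 2 were higher, LAMA1 and LAMA2 (0.52; not called in 13 of 16 alternatives, among them without D2, D3, I1, I2 or I3), and 6 lower (median 0.10). The number higher was 6 without D2 and 1 without D3, I1, I2 or I3. Among 33 collagen chains 11 were lower and 5 higher. COL1A1, the main chain of type I collagen, was at 2292, 2372 and 2279 against 1460.1, 1203 and 1328 CPM (-0.80, SE 0.09) and COL27A1 at 30.3, 32.7 and 30.7 against 11.1, 9.64 and 11.8 CPM (-1.53, SE 0.11), while the abundant COL5A2 and COL12A1 did not pass. The higher chains were COL6A1, COL9A2, COL9A3, COL17A1 and COL11A1, the last from at most 0.0611 CPM to 1.30, 1.30 and 1.52 CPM. COL9A2 was not called in 8 of 16 alternatives, among them without D1, D3, I1 or I2, COL9A3 not called in 8 of 16 alternatives, among them without D1, D3, I1, I2 or I3 and COL17A1 not called in 3 of 16 alternatives, among them without D1 or I2. The number of higher chains moved to 8 without D2, 3 without D3 or I1 and 2 without D1 or I2. The collagen median of 0.13 turned negative without D1, D3, I2 or I3.

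Glycoproteins of the matrix had 7 higher and 10 lower members of 26 tested (median -0.13). Tenascin C (TNC), a large glycoprotein of tumor stroma, was at 575, 611 and 493 against 171, 147 and 151 CPM (-1.84, SE 0.10) and thrombospondin 1 (THBS1) at 419, 421 and 406 against 227, 225 and 228 CPM (-0.87, SE 0.08). VCAN, a chondroitin sulfate proteoglycan, went from 2.25, 3.03 and 1.85 to 0.133, 0.136 and 0.101 CPM. CCN2, a connective tissue growth factor, was higher (89.4, 93.6 and 99.9 against 262, 312 and 288 CPM; 1.61, SE 0.11), as was the elastic fiber gene FBLN5 (1.32, SE 0.10). In these 5 genes no library of a group reached into the other group's range. Enzymes that cut the matrix, with their inhibitors, had 11 of 29 lower and 4 higher (median -0.32). TIMP3, a metalloproteinase inhibitor bound to matrix, was at 35.3, 38 and 35.6 against 2.75, 2.43 and 2.29 CPM (-3.87, SE 0.12), and MMP2, which digests collagen IV, at 25.7, 27.1 and 31.6 against 3.43, 2.51 and 3.21 CPM (-3.20, SE 0.14). The sheddase ADAM12 (-2.41, SE 0.13) and ADAMTS1 (-1.87, SE 0.09) were lower too. MMP1 (3.04, from a mean of 0.118 to 1.01 CPM), MMP3 (0.172, 0.258 and 0.183 against 3.51, 4.14 and 3.94 CPM), MMP24 (0.44; not called in 10 of 16 alternatives, among them without D1, D3, I1, I2 or I3) and TIMP2 (0.67) were the higher ones.

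Adhesion molecules included genes that were near 0 in only one group. CDH11, a mesenchymal cadherin (ENSG00000140937.14, chromosome 16, 64943753 to 65126112, hg38), was at 11.2, 10.3 and 10.9 CPM in the intact and 0.0148, 0.163 and 0.0505 CPM in the deleted libraries, the latter from 17 counts in all, so its fitted log2 fold change of -7.10 (SE 0.39) depends on the prior count. CDH6, another cadherin, was at 14.1, 13.6 and 14.5 against 0.607, 0.652 and 0.455 CPM (-4.62, SE 0.19). The gap junction gene GJA1 (8.09, 7.51 and 7.39 against 0.740, 1.06 and 0.682 CPM; -3.21, SE 0.22) and the tight junction gene OCLN (-1.50, SE 0.11) were lower. DSC3, a desmosomal cadherin, was at most 0.122 CPM in the intact libraries and 1.47, 1.79 and 1.23 CPM in the deleted ones. N-cadherin (CDH2), an abundant member, overlapped between groups at 378, 364 and 356 and 311, 416 and 289.6 CPM (-0.11, adjusted p = 0.578 by edgeR). Of 34 cadherin and junction genes 14 were lower and 9 higher (median -0.10), and 11 and 7 without D2.

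**Figure D4:**
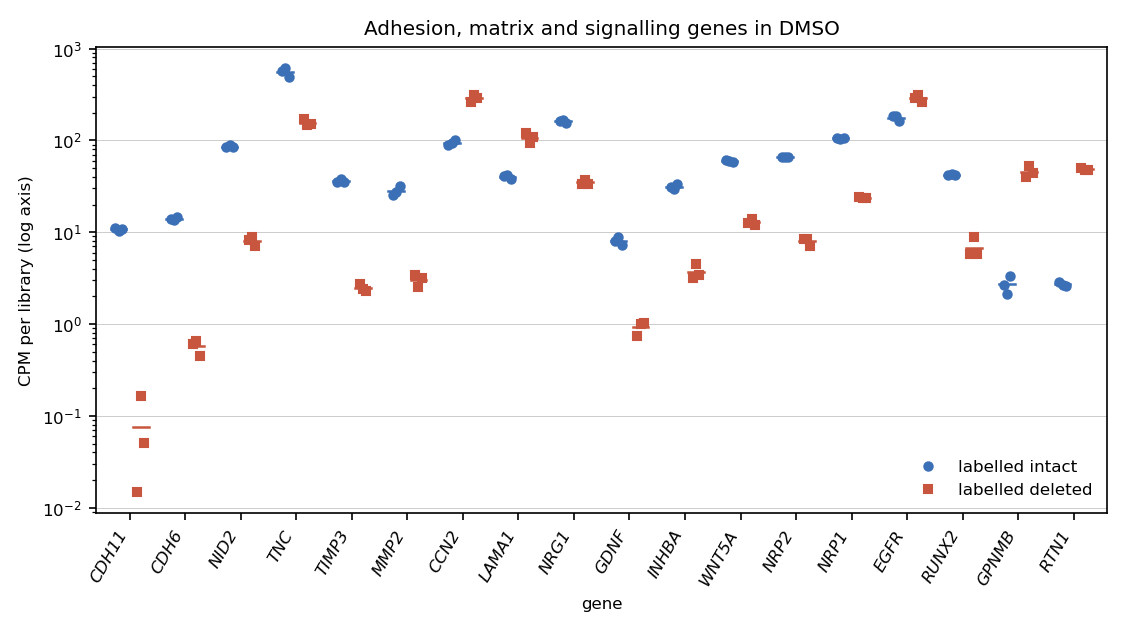
CPM in each of the 6 vehicle libraries, on a log axis, for 18 genes of adhesion, matrix and signalling; circles are intact and squares deleted libraries, and short lines are group means. For all 18 genes the groups are apart, and CCN2, LAMA1, EGFR, GPNMB and RTN1 are higher and the other 13 lower in the deleted libraries. All 18 are called genes, mostly picked for a low p or a large difference, and 98.1% of all called genes are apart in this way.

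Of 24 genes of the contractile apparatus 5 were higher (20.8%, near the 18.8% of all genes) and 5 lower (median 0.10, below 0 without I2). TAGLN, an actin-binding protein of smooth muscle, was at 32.1, 30.2 and 28.8 CPM in the intact and 121, 86.9 and 119 CPM in the deleted libraries (1.84, SE 0.16), and the myosin kinase MYLK at 1.17 (SE 0.11). The focal adhesion gene VCL was lower (416, 419.8 and 406 against 215, 218 and 199 CPM; -0.97, SE 0.09). The higher ones were TAGLN, MYLK, MYH10, CALD1 and ACTA2 and the lower ones VCL, MRTFA, MYH9, CNN2 and MYOCD. ACTA2 was not called in 9 of 16 alternatives, among them without D2, D3, I1, I2 or I3 and CNN2 not called without I1 or I3. Of 26 targets of the mechanical-signal factors YAP and TEAD 14 were higher and 2 lower (median 0.30), and 9 were higher without I1 or I2. AMOTL2 (0.81, SE 0.08), F3, NT5E and CCN2 were among the higher ones, MYOF (-0.93, SE 0.10) and ASAP1 (-0.53; not called in 4 of 16 alternatives, among them without D1, D3 or I1) were the lower ones, and CCN1, a standard target, did not pass (294, 303 and 324 and 275, 312 and 315 CPM).

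Growth factors and their receptors were called in both directions. Of 35 ligand genes 12 were lower and 7 higher (54.3% called, beside 42.9% of protein-coding genes). NRG1, a ligand of the ERBB receptors, was at 163, 165 and 155 CPM in the intact and 33.8, 37.5 and 33.2 CPM in the deleted libraries (-2.21, SE 0.09). GDNF, a ligand of the RET receptor complex, was at 8.0, 8.96 and 7.31 against 0.740, 1.0 and 1.04 CPM (-3.12, SE 0.15) and VEGFC, which acts on lymphatic vessels, at 77.6, 82.2 and 84.6 against 24.7, 30.1 and 26.3 CPM (-1.59, SE 0.10). Ligands of the EGF receptor went both ways, with TGFA lower (-1.48, SE 0.12) and AREG higher (1.75, 1.69 and 1.82 against 5.03, 7.62 and 5.57 CPM; 1.79, SE 0.15), and FGF2 did not pass (called in 4 of 16 alternatives, among them without D3). Among 42 receptor tyrosine kinases 10 were higher and 10 lower (47.6% called, near the 42.9% of protein-coding genes). EGFR was at 183, 182 and 162 against 290.2, 311 and 261 CPM (0.71, SE 0.11), the insulin receptor INSR at 1.07 (SE 0.12) and MERTK, which clears dying cells, at 1.45 (SE 0.14). NTRK3 (6.31, 6.72 and 5.41 against 1.86, 1.29 and 1.31 CPM; -2.05, SE 0.17), FGFR2 (-1.88) and ROR2 (-1.72) were lower. MET and EPHA2, the most abundant kinases that did not pass, were at -0.19 and -0.37 (MET called in 3 of 16 alternatives, among them without D2, EPHA2 called in 3 of 16 alternatives, among them without D3). The ligand median of 0.14 turned negative without D1 or D3, and that of the kinases, -0.11, positive without D2.

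Within the insulin-like growth factor system 11 of 12 tested genes were called, 7 higher and 4 lower (median 0.48). The binding proteins split: IGFBP7 was higher (10.4, 9.82 and 12.6 against 28.3, 30.0 and 26.9 CPM; 1.37, SE 0.11) and IGFBP2 lower (12.2, 13.2 and 14.9 against 4.43, 2.55 and 4.08 CPM; -1.87, SE 0.21). IGFBP5 (-2.10), IGFBP6 (-0.87) and the protease PAPPA (-0.72) were the other lower members. The receptors IGF1R, INSR and IGF2R were higher (0.61, 1.07 and 0.50), as was the ligand IGF2 (0.158, 0.115 and 0.0407 against 0.636, 0.828 and 0.240 CPM; 2.49, SE 0.57).

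Members of the TGF-beta, activin and BMP pathways were higher in 17 of 46 cases and lower in 6 (median 0.10). INHBA, which encodes the activin A subunit, was at 31.4, 29.5 and 33.4 CPM in the intact and 3.17, 4.45 and 3.38 CPM in the deleted libraries (-3.10, SE 0.14), and ID2, a BMP-responsive inhibitor of transcription, at 19.6, 19.3 and 21.4 against 5.36, 7.37 and 6.78 CPM (-1.63, SE 0.12). Endoglin (ENG), a co-receptor, was higher (90.4, 84.1 and 86.6 against 206, 154 and 194 CPM; 1.09, SE 0.11), as were LTBP2, a latent TGF-beta binding protein (1.61, SE 0.12), and FSTL1 (0.66, SE 0.08). SMAD3 (lower side; called in 9 of 16 alternatives, among them without D2) and the BMP antagonist GREM1 (lower side; called in 4 of 16 alternatives, among them without D2) did not pass. In the Wnt list 13 of 41 were lower and 9 higher (median -0.14). The noncanonical ligand WNT5A (60.8, 59.7 and 58.3 against 12.6, 13.8 and 12 CPM; -2.22, SE 0.12) and its receptor ROR2 (29, 28.1 and 29.6 against 10.1, 6.43 and 9.79 CPM; -1.72, SE 0.16) were both lower. LRP5, a co-receptor of canonical Wnt, was higher (1.11, SE 0.12) and LGR4, a receptor of R-spondins, lower (-1.40, SE 0.15). Of 22 Notch pathway genes 8 were lower and 1 higher (median -0.17). HES1, the classical Notch target, was at 15.1, 18.2 and 19.4 against 4.40, 3.38 and 5.73 CPM (-1.96, SE 0.19), NOTCH2 at -0.62, JAG1 at -0.64 and NOTCH1, the higher member, at 0.48 (SE 0.12), joined by JAG2 without D2, where the list's median was 0.01.

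Axon guidance molecules, which also steer vessel and tumor cells, had 12 of 44 lower and 11 higher. Both neuropilins, co-receptors of semaphorins and VEGF, were lower: NRP2 (ENSG00000118257.17, chromosome 2, 205681990 to 205798133, hg38) was at 65.8, 66.4 and 65.3 CPM in the intact and 8.50, 8.42 and 7.06 CPM in the deleted libraries (-3.04, SE 0.11), and NRP1 at 107, 104 and 107 against 23.9, 23.7 and 23.6 CPM (-2.16, SE 0.09). EFNB2, an ephrin ligand, was at -2.28 (SE 0.14). The netrin receptors UNC5A and NEO1 were higher (1.76 and 0.89). The median, -0.04, turned positive without D2 or I1. Ion channel genes had 16 of 43 higher and 11 lower (median 0.44), and 7 were lower without D1, I1 or I3. The calcium channel subunit CACNA2D2 was at 1.25, 1.96 and 1.25 against 12.4, 12.9 and 14.5 CPM (3.16, SE 0.18) and its paralog CACNA2D1 at 2.58, 2.12 and 2.89 against 0.237, 0.271 and 0.101 CPM (-3.65, SE 0.35), so that the pair differed in opposite directions. CLCN4, a chloride transporter, was higher (17.6, 17.4 and 15.3 against 67.8, 62.1 and 64.5 CPM) and KCNMA1, a calcium-activated potassium channel, lower (176, 168 and 170.4 against 82.7, 89.7 and 75.9 CPM).

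HOX genes, whose pattern records a cell's position of origin, were called in both directions. Of 33 tested 9 were lower and 6 higher (45.5% called, near the 42.9% of protein-coding genes). Their log2 fold changes ran from -1.34 to 0.84 (median -0.11, above 0 without D1). The number higher was 3 without D2, I1 or I3. HOXB2 and HOXB4 were lower (-0.59 and -0.72) and HOXA7 and HOXC4 higher (0.84 and 0.66), while HOXB7 and HOXC10 overlapped at 44.3, 44 and 48.5 and 40.7, 49.3 and 42.6 CPM and at 32.8, 32.9 and 31.8 and 30.6, 41 and 33 CPM. Of other developmental transcription factors 17 of 66 were lower and 16 higher (median 0.02). RUNX2, the master factor of bone, was at 41.6, 43.2 and 41.5 against 5.79, 8.77 and 5.81 CPM (-2.63, SE 0.17) and PAX8, a kidney and thyroid factor, at 65.9, 75.6 and 67.9 against 20.9, 19.3 and 22.2 CPM (-1.75, SE 0.09). TBX3, a factor of mammary development, was lower (-1.24, SE 0.09). LMX1B, a limb and kidney factor, was higher (10.8, 9.95 and 10.6 against 31.7, 25.2 and 32.2 CPM; 1.51, SE 0.12). Imprinted genes, read from 1 parental copy, had 8 of 24 higher and 7 lower (median 0.04, below 0 without D3), with 5 higher without I1. MEST (98.7, 92 and 94.5 against 27.9, 25.9 and 27.9 CPM; -1.80, SE 0.09) and the noncoding RNAs MEG3 and MEG8 of one locus (-1.08 and -1.14) were lower.

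Among cell cycle genes those of G2 and mitosis included many higher ones, and those of DNA replication were called at the shares of all genes. Of 43 G2/M genes 22 were higher and 3 lower (median 0.31), and 19 and 3 without D2. FOXM1, the factor that drives this program, was at 247, 251 and 254 CPM in the intact and 383, 368 and 376 CPM in the deleted libraries (0.58, SE 0.07), and the checkpoint kinase BUB1 at 141, 142 and 145 against 241, 298 and 245 CPM (0.88, SE 0.10). The lower members were CDC20 (-0.53; not called without I3), CDCA8 (-0.33) and BUB3 (-0.29), and MKI67 (called in 2 of 16 alternatives, among them without D3) and CCNB1 did not pass. Of 43 replication genes 8 were higher and 7 lower (median -0.05), with 3 to 5 higher when D1, D3, I1, I2 or I3 was left out and 4 lower without I1 or I3. MCM4, part of the replicative helicase, was lower (-0.48, SE 0.07), PRIM2, a primase subunit, higher (0.56, SE 0.08), and RRM1 and RRM2 did not pass. TOP2A, the topoisomerase that doxorubicin poisons, was at 948, 967 and 939 against 1079.6, 1289 and 1054 CPM (0.26, SE 0.09, adjusted p = 0.0445 by edgeR), and was not called in 10 of 16 alternatives, among them without D2, I1, I2 or I3 (adjusted p = 0.2 by edgeR without D2).

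Of 38 tested p53 target genes 12 were higher and 5 lower (median 0.12), and 3 were lower without I1 or I3. MDM2, the ligase that degrades p53, was at 119, 118 and 114 CPM in the intact and 187, 230.4 and 176 CPM in the deleted libraries (0.76, SE 0.14). CYFIP2 was at 1.45, 2.04 and 1.42 against 10.2, 11.4 and 11 CPM (2.74, SE 0.14) and the autophagy gene TP53INP1 at 4.76, 5.71 and 6.05 against 16.5, 17.7 and 15.6 CPM (1.59, SE 0.15). PLK2, a kinase of centrioles, was lower (662, 639 and 669.5 against 326, 402 and 359 CPM; -0.86, SE 0.09), with TNFRSF10A (-0.46), TP53I3 (-0.44; not called in 7 of 16 alternatives, among them without D2, I1, I2 or I3), TRIAP1 (-0.34; not called without I1 or I3) and GADD45A (-0.63). CDKN1A, the cell cycle inhibitor p21, overlapped at 62.7, 65 and 72 and 82.8, 50.7 and 84.5 CPM (0.13, adjusted p = 0.61 by edgeR), as did BAX and TNFRSF10B.

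Antioxidant and drug-handling genes were called in both directions. Of 31 targets of NRF2, the factor that answers oxidative stress, and other thiol enzymes 11 were lower and 4 higher (median -0.28), and 2 were higher without I1 or I2. The quinone reductase NQO1 (ENSG00000181019.13, chromosome 16, 69706996 to 69726951, hg38) was at 223, 207 and 233 CPM in the intact and 45.6, 42.9 and 49.4 CPM in the deleted libraries (-2.26, SE 0.10), and GCLM, a subunit of the enzyme that starts glutathione synthesis, at 97.6, 91.6 and 97.4 against 34.3, 39.8 and 30.5 CPM (-1.45, SE 0.11). FTH1, the ferritin heavy chain that stores iron, was at 2435, 2422 and 2677 against 862, 973 and 933 CPM (-1.44, SE 0.12), while the light chain FTL did not pass (-0.20, SE 0.15). FTH1 has many processed copies, which can share its reads. HMOX1, which degrades heme, was lower (-1.83, SE 0.20). GCLC (0.51), SLC7A11 (0.77), GSTP1 (0.43; not called in 5 of 16 alternatives, among them without D1, D3, I1 or I2) and GSTM4 (0.49; not called in 3 of 16 alternatives, among them without I1 or I2) were higher. Of 27 efflux transporters and anthracycline enzymes 10 were lower and 6 higher (median -0.27, and -0.14 without D2 and -0.54 without D3). ABCG2, a pump that exports anthracyclines, was at 15.2, 14.8 and 15.6 against 3.52, 4.94 and 4.82 CPM (-1.78, SE 0.15), and AKR1B1, an aldo-keto reductase, at 279, 264 and 272 against 104, 64.5 and 105 CPM (-1.58, SE 0.21). ABCA3, a lipid transporter, was higher (0.90, SE 0.11).

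Among metabolic genes, glycolysis had 10 of 24 lower and 3 higher (median -0.13). PKM, the pyruvate kinase that ends the pathway, was at 4173, 4232 and 4318 CPM in the intact and 2461, 2671 and 2402 CPM in the deleted libraries (-0.76, SE 0.08), and LDHA, which makes lactate, at 1466, 1440.4 and 1514 against 1004, 1046 and 989.7 CPM (-0.54, SE 0.07). PGAM1 (-0.69), PFKP (-0.58) and the lactate exporter SLC16A1 (-0.68) were lower, TPI1 and PGK1 did not pass, and HK1 (0.48), PFKL (0.50) and PFKM (0.36) were higher. PFKL was not called in 10 of 16 alternatives, among them without D1, D3, I1, I2 or I3, and PFKM not called in 14 of 16 alternatives, among them without D1, D3, I1, I2 or I3. Cholesterol and fatty acid synthesis had 14 of 31 lower and 5 higher (median -0.26, and -0.11 without D2); 2 or 3 were higher without D1, I1, I2 or I3. SCD, which desaturates fatty acids, was at 161, 164 and 174 against 91.5, 87.5 and 88.8 CPM (-0.90, SE 0.08), SQLE, an early sterol enzyme, at -0.98 (SE 0.11) and INSIG1, a sterol sensor, at -0.82 (SE 0.10), with IDI1, LSS, SC5D, NSDHL and ELOVL5 higher. SC5D was not called in 10 of 16 alternatives, among them without D1, D2, I1, I2 or I3, NSDHL not called in 10 of 16 alternatives, among them without D1, D2, I1, I2 or I3 and ELOVL5 not called in 12 of 16 alternatives, among them without D2, I1, I2 or I3. Lysosome genes had 13 of 37 higher and 7 lower (median 0.14), with 8 higher without I2. NPC2, which moves cholesterol out of lysosomes, was at 80.5, 75.4 and 83.9 against 182, 207 and 189.8 CPM (1.27, SE 0.11), and ATP6V0D1, a proton pump subunit, was lower at 77.4, 75 and 76.4 against 39.4, 33.9 and 37.3 CPM (-1.05, SE 0.11). Of 45 nuclear genes of the respiratory chain 4 were higher and 4 lower (17.8% called, beside 34.9% of all genes; median 0.06), with 2 higher without I1 or I2. NDUFB9, a complex I subunit, was the farthest apart (192, 189 and 199 against 70.6, 60.5 and 72.8 CPM; -1.51, SE 0.14).

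The 13 mRNAs of the mitochondrial genome had a median of 0.77 that rested on D2: 2 were higher, MT-ND2 and MT-ND3, and 1 lower, MT-ND6, with all libraries, and without D2 the median was 0.03 and 0 were higher by edgeR (0 at an unadjusted p under 0.05). MT-ND2 was at 1564, 1248 and 1722 CPM in I1 to I3 and 1643, 5439 and 2059.9 CPM in D1 to D3. Without D1, 8 were higher, and without I1, I2 or I3 none was; MT-ND6 was not called without D1 or I1. Among 51 genes for ribosomal proteins 20 were lower and 1 was higher (median -0.30). RPS6 was the higher one (1077, 1079 and 1188 against 1962, 2147 and 1966 CPM; 0.86, SE 0.10), and RPS18 (-1.08), RPL24 (-1.05) and RPL32 (-0.83) were lower, while RPL8 and RPLP0 did not pass. These genes have near-identical processed copies that can share their reads.

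The genes farthest apart, ranked without clone-based, LINC and antisense symbols and genes without a position, were of mixed function. The largest rises among genes of at least 5 CPM were at RTN1, a reticulon of the endoplasmic reticulum known from neurons (ENSG00000139970.17, chromosome 14, 59595976 to 59870966, hg38; 2.88, 2.64 and 2.60 CPM in the intact against 49.8, 48.1 and 47.2 CPM in the deleted libraries; 4.16, SE 0.10), and at GPNMB, a lysosomal glycoprotein that is also a melanocyte marker (2.65, 2.15 and 3.36 against 39.6, 52.2 and 44.1 CPM; 4.05, SE 0.17). TLL1, a protease that matures procollagen, followed (3.41, SE 0.16), with GLUL, which makes glutamine (5.59, 6.18 and 5.47 against 51.7, 50.5 and 50.1 CPM; 3.14, SE 0.10). Of 30 neuronal markers 18 were tested, 5 of them higher and 5 lower (median -0.21), with a summed level of 874.5 to 910.5 CPM in the intact and 755.5 to 827 CPM in the deleted libraries. Beside RTN1 the higher ones were MAP2 (2.16), CAMK2B (1.79), SNAP25 (0.65; not called in 4 of 16 alternatives, among them without D2, I1 or I3) and MAPT (0.50), and the lower ones were CAMK4, GRIK2 (-2.70), SYP (-0.88), GABRA3 (-0.78) and CHGB (-0.56; not called without D1, D3 or I3), while STMN2 was at most 0.172 CPM. The part of neuronal cells in these differences was not tested. The largest falls after CDH11 were at NTNG1 (4.99, 5.58 and 5.68 against 0.192, 0.0814 and 0.0253 CPM), PLCXD3 (15, 14.8 and 15.5 against 0.237, 0.489 and 0.227 CPM), KLHL4 (7.05, 6.67 and 7.72 against 0.0888, 0.244 and 0.126 CPM) and CAMK4, a calcium-dependent kinase (29.2, 27.4 and 25.5 against 0.414, 0.882 and 0.530 CPM). SSTR2, the somatostatin receptor targeted in neuroendocrine tumors, was at 12.3, 13.2 and 12.7 against 0.696, 0.339 and 0.429 CPM (-4.71, SE 0.21), and CHST6 and B3GNT9, enzymes of glycan chains whose genes lie on chromosome 16, at -5.44 and -5.37. Of highly expressed genes, CAV1, the coat protein of caveolae, was lower (646, 619 and 649.6 against 226, 293 and 233 CPM; -1.35, SE 0.11), as was the exchange factor TRIO (-1.17, SE 0.10). SPTAN1, a spectrin of the membrane skeleton, was higher (505, 589 and 466 against 1221, 1161 and 1136 CPM; 1.17, SE 0.10), as was PSIP1, a chromatin-bound coactivator (243, 245 and 265 against 755, 1496 and 721 CPM; 1.98, SE 0.24), whose highest value was that of D2.

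The same contrast was read in the 6 doxorubicin libraries, which share no library with the vehicle ones but differ in dose. The treated intact libraries were uneven. Chi-square per degree of freedom was 78.4 to 168 between them, against 8.42 to 19.1 between the treated deleted ones. In treated intact replicates 1 to 3, deviations correlated with GC content at -0.442, 0.481 and -0.162. Mitochondrial genes took 5.54%, 3.57% and 3.16% of their counts. There 10421 of 21803 genes were called (47.8%). Of the genes higher in vehicle 88.5% were also above 0 and 65.9% also higher by the test, and of the genes lower in vehicle 84.9% were below 0 and 67.4% lower by the test. The opposite call was made for 133 and 274 genes. CDH11, CXCL12, NID2 and RTN1 kept their direction, at -8.78, -3.84, -2.98 and 3.52 in the treated libraries. NRP1 (-3.07), NQO1 (-2.22), WNT5A (-2.74) and MMP2 (-3.96) kept theirs as well. CXCL8 (-1.52 in vehicle, 1.62 in treated libraries), CSF1 (-1.87 and 0.32), GDNF (-3.12 and 0.45) and CAV1 (-1.35 and 0.39) had the opposite sign there. Of the 59 interferon-stimulated effectors 24 were lower and 15 higher in the treated libraries, with a median of -0.20, and of the 22 class I genes 16 were lower, with a median of -0.68. Of the 38 p53 targets 36 were higher there (median 2.34), and of the 43 G2/M genes 37 were lower (median -0.81). The receptor genes IFNAR1, IFNAR2 and IFNGR2 stayed higher, at 0.93, 0.98 and 0.56, and chromosomes 21 and 22 had medians of 0.53 and -0.29.

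**Figure D5:**
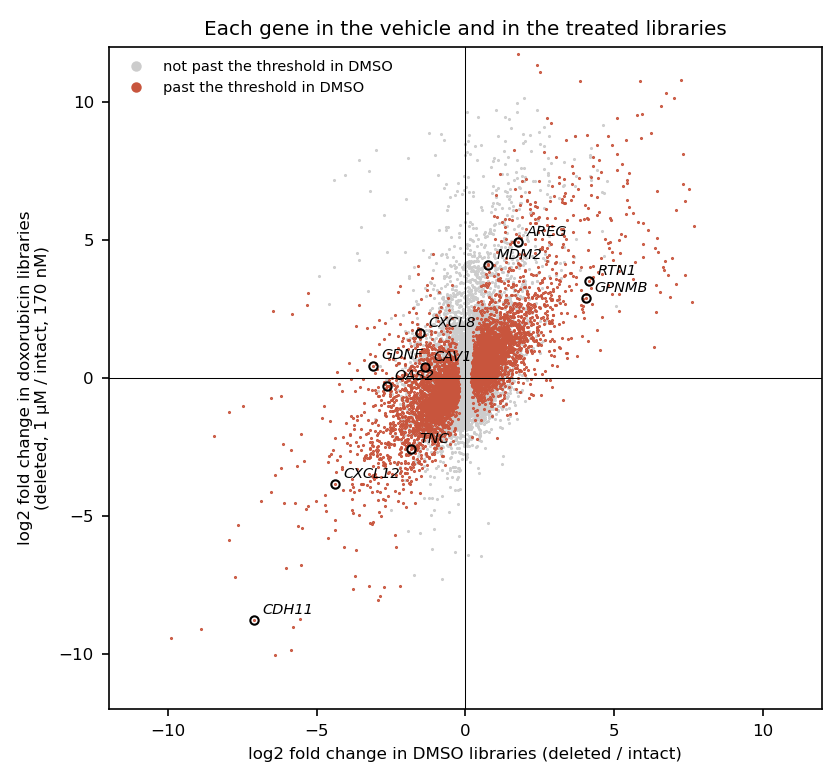
Log2 fold change of each tested gene, deleted over intact, in the vehicle libraries (x axis) and in the doxorubicin libraries (y axis, 1 µM in deleted and 170 nM in intact cells). Red points passed the threshold in vehicle, and 11 genes are circled; CDH11 and CXCL12 lie in the lower left, RTN1 and GPNMB in the upper right, and CXCL8, GDNF and CAV1 in the upper left quadrant.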

How the data were processed

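Paired-end RNA libraries were made with a KAPA RNA Hyper Prep kit, per the labels' protocols. The submitters' processing notes name STAR 2.7.9a, featureCounts (Subread 2.0.1) and the build hg38. Annotation release and strand setting: not given in the sources used here, so reads of a gene and an overlapping antisense gene cannot be told apart. Of the gene identifiers 58429 had a position in GENCODE 29 (hg38). The authors deposited whole-number counts for each gene, not normalized. The counts of all 12 libraries were fitted in 1 model of 4 groups (edgeR 4.0.16 in R 4.3.3, TMM scaling, filterByExpr, quasi-likelihood test, 8 residual degrees of freedom), and the vehicle groups were contrasted. Log2 fold changes are deleted over intact, with SE from the test, and CPM are TMM-scaled. Genes with an adjusted p under 0.05 over all genes tested were called. Alternatives were other scalings, filters, tools (DESeq2 1.42.0, limma 3.58.1), a GC correction, a replicate block and leaving out each library. The pipeline was tested on simulated data.

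The comparison, its members and the gene lists were chosen with earlier results of these data known. Genes named were 5 set by name, the 15 highest and 15 lowest log2 fold changes among called genes of at least 5 CPM without overlap, up to 5 called members with the lowest p and the 2 most abundant that did not pass from each list, and the 10 most abundant called genes of at least 2-fold. The ranking by log2 fold change left out genes without a position and those with clone-based, LINC or antisense symbols. Not all of these are printed. Other genes, such as members that spell out a small count, IFIT1, IFI6, BST2, IRF9 and IGF2, were chosen after their values were seen, as were the 4 promoters shown. Some members of the lists are not reported here by name.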

Additional observations from a re-analysis of the deposited data

Results flagged for a closer look

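The difference between the deleted and the intact libraries itself differed between vehicle and doxorubicin at 3705 of the 21803 genes tested, or 17.0% (interaction contrast, edgeR's quasi-likelihood test with Benjamini-Hochberg adjustment). Of these, 1859 were also called in vehicle. The treated groups received 170 nM (intact) and 1 µM (deleted), so dose and genotype cannot be told apart in that contrast. The treated intact libraries also differed more among themselves than the treated deleted ones, as given above.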

How the results depend on the processing

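With 3 libraries per group, 200 of 21803 genes were changed in data simulated for the vehicle comparison. The fit gave back 20.9% of 1.5-fold, 43.3% of 2-fold and 78.8% of 4-fold changes. Of its 105 calls 10 were false, a larger share than the threshold of 0.05. In the real data 34.9% of genes were called, and the adjustment of p depends on that share, so these rates may not carry over. Smaller differences can be missed, and genes with few counts more so. The number of genes called lay between 5893 and 9017 over the alternatives, all within 1.5 times 7618, except that 2651 genes were also at least 2-fold apart. Replicate numbers did not pair the libraries (correlations of deviations 0.0652, 0.00365 and -0.0364 for numbers 1 to 3), not each library correlated best with its own number, and a fit with the replicate number as a block called 6720 genes. Over 16 alternatives 30 of 230 called genes named above lost the call in at least 1, and 0 changed sign. These genes were mostly picked for a low p or a large difference without overlap, so few losses were likely from the start. Of all 7618 called genes 6360 kept their call and direction without D2. The 17p median less that of other genes, -0.17, was -0.069 with no filter on low counts, -0.12 with the GC trend removed, -0.19 among genes of at least 5 CPM, and -0.20 to -0.11 with 1 library left out. List medians that moved by more than the spread between replicates are given next, and the cause was not tested. With library totals only, they were -0.40 (interferon receptors and signal factors), -0.81 (interferon-stimulated effectors), -0.36 (matrix proteases and their inhibitors), -0.17 (Wnt ligands / receptors and targets). With scaling factors computed without the 10 most abundant genes, they were -0.40 (interferon receptors and signal factors), -0.82 (interferon-stimulated effectors), -0.32 (nucleic acid sensors and adaptors), -0.35 (matrix proteases and their inhibitors), -0.13 (cadherins and junction genes), 0.067 (contractile and SRF target genes), -0.17 (Wnt ligands / receptors and targets). With no filter on low counts, they were -0.42 (interferon receptors and signal factors), -0.84 (interferon-stimulated effectors), -0.34 (nucleic acid sensors and adaptors), -0.18 (immune checkpoint and NK cell ligands), -1.50 (cytokines and chemokines), -0.20 (complement and coagulation), -0.37 (matrix proteases and their inhibitors), -0.15 (cadherins and junction genes), 0.050 (contractile and SRF target genes), 0.24 (YAP and TEAD targets), 0.048 (TGF-beta / activin and BMP genes), -0.19 (Wnt ligands / receptors and targets), -0.16 (receptor tyrosine kinases), -0.11 (DNA replication genes). With a filter of 1 CPM in 3 libraries, they were -0.41 (interferon receptors and signal factors), -0.32 (nucleic acid sensors and adaptors), -0.47 (complement and coagulation), -1.04 (APOBEC3 deaminases), 0.015 (collagens), -0.36 (matrix proteases and their inhibitors), -0.13 (cadherins and junction genes), 0.054 (contractile and SRF target genes), 0.32 (voltage-gated and other ion channels). With only the 6 vehicle libraries fitted, they were -0.40 (interferon receptors and signal factors), -0.82 (interferon-stimulated effectors), -0.32 (nucleic acid sensors and adaptors), -0.47 (HLA class II and its factors), -0.19 (immune checkpoint and NK cell ligands), -1.04 (APOBEC3 deaminases), -0.056 (collagens), -0.35 (matrix proteases and their inhibitors), 0.031 (contractile and SRF target genes), 0.059 (TGF-beta / activin and BMP genes), -0.046 (growth factor ligands), 0.16 (voltage-gated and other ion channels). With the GC trend removed, they were -0.42 (interferon receptors and signal factors), -0.75 (interferon-stimulated effectors), -0.22 (complement and coagulation), -0.34 (matrix proteases and their inhibitors), 0.16 (contractile and SRF target genes), -0.069 (Wnt ligands / receptors and targets), -0.064 (receptor tyrosine kinases). With limma-voom, they were -0.49 (HLA class II and its factors), -1.01 (APOBEC3 deaminases), -0.16 (cadherins and junction genes), 0.14 (contractile and SRF target genes), -0.18 (Wnt ligands / receptors and targets), 0.34 (voltage-gated and other ion channels). With the replicate block, they were 0.15 (contractile and SRF target genes). With 1 library left out, medians ran from -0.41 to -0.33 (interferon receptors and signal factors), -0.85 to -0.71 (interferon-stimulated effectors), -0.34 to -0.26 (nucleic acid sensors and adaptors), -1.27 to -1.11 (HLA class I and its peptide pathway), -0.75 to -0.34 (HLA class II and its factors), -0.19 to -0.10 (immune checkpoint and NK cell ligands), -1.57 to -1.29 (cytokines and chemokines), -0.22 to -0.13 (complement and coagulation), -1.01 to -0.87 (APOBEC3 deaminases), -0.15 to 0.20 (collagens), -0.43 to -0.22 (matrix proteases and their inhibitors), -0.16 to -0.074 (cadherins and junction genes), -0.0086 to 0.18 (contractile and SRF target genes), 0.25 to 0.32 (YAP and TEAD targets), 0.011 to 0.096 (TGF-beta / activin and BMP genes), -0.21 to -0.15 (Wnt ligands / receptors and targets), -0.023 to 0.15 (growth factor ligands), -0.17 to 0.024 (receptor tyrosine kinases), -0.15 to 0.12 (ephrins / semaphorins and guidance genes), -0.14 to 0.012 (HOX genes), 0.29 to 0.43 (voltage-gated and other ion channels), -0.055 to 0.15 (imprinted genes), 0.064 to 0.24 (p53 target genes), 0.22 to 0.34 (G2/M genes), -0.12 to -0.014 (DNA replication genes), -0.37 to -0.20 (NRF2 targets and thiol enzymes), -0.54 to -0.14 (drug efflux transporters and anthracycline enzymes), -0.33 to -0.11 (cholesterol and fatty acid synthesis), 0.035 to 1.08 (mitochondrially encoded mRNAs), -0.42 to -0.26 (cytosolic ribosomal protein genes).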

Other observations

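Of the 59 gene lists examined 38 are described above, beside the melanocyte and neuronal marker lists, which are counted among the others here. In the other 21 lists the share of tested members called ran from 16.7% to 66.7% and the median log2 fold change from -0.52 to 0.38. Across all lists, 53 of 59 had a share above the 34.9% of all genes and 46 above the 42.9% of protein-coding genes.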
